A study of Mus musculus with 7 samples.

Results

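The complement genes described here are C3, C4b, C2, Cfb, Cfi, C1qa, C1qb, C1qc and C3ar1. These 9 genes were taken by symbol from a table of 24964 genes, measured by RNA sequencing of whole mouse uterus. All uteri came from animals 12 weeks old, labelled as diestrus, when ovarian estrogen is low. The control group (3 libraries, replicates 1, 2 and 4) had the genotype Pgrcre/+, in which Cre recombinase is made from the progesterone receptor locus. The other group (4 libraries, replicates 1 to 4) had the genotype Pgrcre/+Foxl2LsL/+ and is called Foxl2-LSL below. Both groups therefore carried the Cre allele, and no library came from a uterus without it. LSL usually names a stop cassette flanked by loxP sites, though the labels do not say so, and FOXL2 is a forkhead transcription factor. Nothing in the labels states that each library came from a different animal, so p-values measure the spread between these libraries only. Throughout, ± gives the SD over the 3 controls (n = 3) or the 4 Foxl2-LSL libraries (n = 4).

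Depth was similar across libraries, at 47800000 to 67300000 fragments, as recovered from the FPKM values (fragments scaled to gene length and library size). Foxl2 itself did not separate the groups: it lay between 11.1 and 19.3 FPKM in controls and between 12.7 and 17.2 FPKM in the libraries labelled Foxl2-LSL. Its log2 fold change, on the log2(FPKM + 1) scale as throughout, was 0.06 (limma, with p adjusted by Benjamini-Hochberg over all tested genes, adjusted p 0.818), so every direction below belongs to the genotype labels and not to a measured rise of Foxl2. Whether transcripts of the LSL allele are counted under Foxl2 is not given in the sources used here. Hoxa10, a homeobox gene that marks uterine stroma, was present in all libraries (77.9 ± 41.1 FPKM and 25.4 ± 2.47 FPKM). It was lower in Foxl2-LSL (log2 fold change -1.45, limma adjusted p 0.00835). Of 5 red cell genes, Alas2 was at 0.476 to 1.30 FPKM. The other 4, near-identical globin genes, were listed at 0 in every library and say nothing on blood content, since the counting of shared reads is not given in the sources used here.

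Complement is a cascade of plasma and tissue proteins that tags surfaces for removal. The classical pathway starts with C1q, a 3-chain recognition protein made mainly by macrophages, and proceeds through C4 and C2. The alternative pathway amplifies deposition of C3 through factor B, and factor I cuts deposited C3b and C4b into inactive forms. C3 is the component on which all pathways converge. In rodents it is also known as a secreted product of uterine epithelium that estrogen induces. The receptor encoded by C3ar1 binds C3a, the small fragment released when C3 is cleaved.

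The members lie in a few places of the genome (GENCODE M21 on GRCm38, the assembly also called mm10). C3 occupies chromosome 17 from 57203970 to 57228136 on the minus strand. In the class III part of the major histocompatibility complex, on the same chromosome and strand, lie C4b (34728380 to 34743882), Cfb (34856374 to 34862518) and C2 (34862604 to 34898265). C2 and Cfb are 86 bases apart. The 3 C1q genes form a cluster on the minus strand of chromosome 4, with C1qb at 136880129 to 136886187, C1qc at 136889804 to 136893065 and C1qa at 136895917 to 136898803. Cfi lies on chromosome 3 (129835884 to 129875332, plus strand) and C3ar1 on chromosome 6 (122847138 to 122856161, minus strand). The longest annotated transcripts of C3 and C4b have 41 exons each, while those of the C1q genes have 3.

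Upstream sequence was found by symbol for 4 of the 9 genes, C3, C1qb, C1qc and C3ar1 (RefSeq, GRCm38.p6). The 250 bases before the annotated start are printed for C3, the member with the largest difference, and for C1qb, whose level did not separate the groups. Capitals mark matches, on either strand, to the motifs searched: the core of the estrogen response element (GGTCA), a forkhead motif (GTAAACA), a STAT motif (TTCNNNGAA), a PU.1-type ETS motif (GAGGAAG) and a C/EBP-type motif (TTNNGCAA). The C3 stretch is chr17:57228137-57228386 and the C1qb stretch chr4:136886201-136886450, both read 5′ to 3′ on the minus strand.
C3: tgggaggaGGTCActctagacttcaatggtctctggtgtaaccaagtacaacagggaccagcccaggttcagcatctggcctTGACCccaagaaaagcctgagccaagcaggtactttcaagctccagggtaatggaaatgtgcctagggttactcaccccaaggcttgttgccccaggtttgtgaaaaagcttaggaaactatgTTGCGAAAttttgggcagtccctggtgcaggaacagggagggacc
C1qb: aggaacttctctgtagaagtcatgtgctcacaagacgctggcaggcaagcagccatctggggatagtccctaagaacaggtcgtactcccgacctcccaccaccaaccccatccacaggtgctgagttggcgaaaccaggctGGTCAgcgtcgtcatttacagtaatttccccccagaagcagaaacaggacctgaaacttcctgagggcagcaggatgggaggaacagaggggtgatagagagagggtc

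The GGTCA core of C3 began 242 bases before the start on the gene's strand and 168 bases before it on the opposite strand, and the C/EBP-type match began 45 bases before the start. The GGTCA core is common: 35.2% of 32851 promoter windows of this length held it. The C/EBP-type motif was in 9.56% of windows and the PU.1-type motif, found in C1qc, in 10.6%. The C1qb core began 108 bases before the start, and C1qc held the core at 174 and 129 bases. The palindromic estrogen response element (the core and its inverted copy with 3 bases between) was in none of the 4 windows searched and in 0.0639% of all windows. No forkhead or STAT match was found in the 4 windows, against 3.17% and 7.02% of all windows, and C3ar1 held no match to any motif. A match describes letters only.

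C3 rose most among the complement genes. It was at 152, 113 and 72.1 FPKM in controls 1, 2 and 4, and at 839, 376, 589 and 932 FPKM in libraries 1 to 4 of Foxl2-LSL. The lowest Foxl2-LSL library thus lay above the highest control. The group means were 112 ± 39.9 FPKM and 684 ± 251 FPKM, a ratio of 6.10. This gave a log2 fold change of 2.58 (95% interval 1.75 to 3.40, SE 0.36) with a limma adjusted p of 0.00155. Of 13334 genes tested, 32 had a larger rise. By FPKM, C3 ranked between 265 and 683 of all listed genes in controls and between 22 and 90 in Foxl2-LSL libraries. At least 24316 fragments lay on C3 in every library, which makes counting error minor against the differences among libraries. An exact permutation test (two-sided) gave p = 0.0571, the smallest that 3 against 4 libraries allow.

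**Figure D1:**
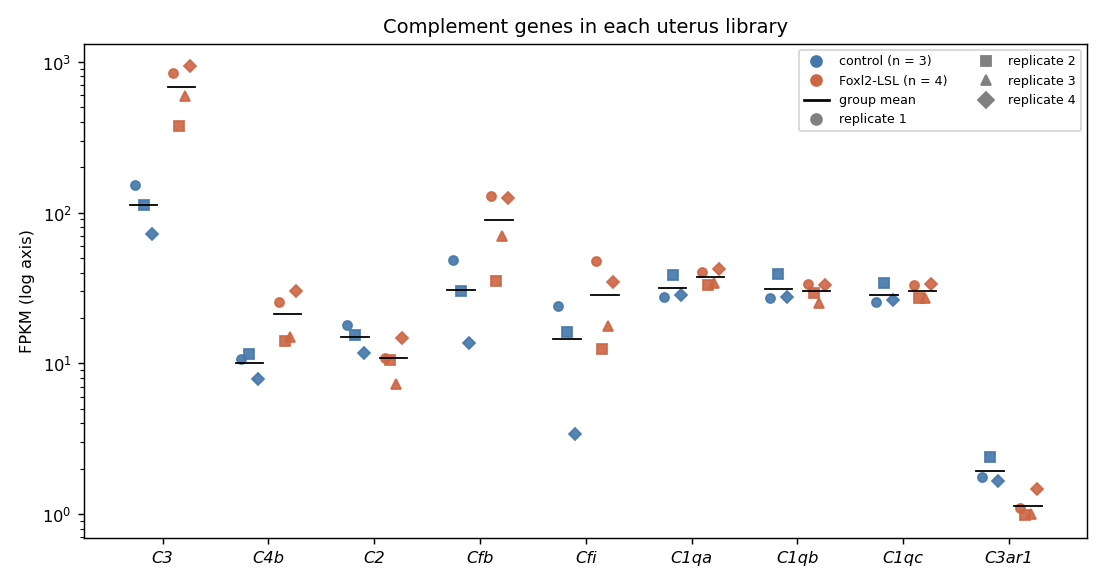
FPKM (log axis) of the 9 complement genes in each library; blue points are the 3 controls, orange points the 4 Foxl2-LSL libraries, marker shapes give the replicate number and black bars the group means. C3 lies at 376 FPKM or more in every Foxl2-LSL library and at 152 FPKM or less in every control, whereas the C1q chains overlap.

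In all, the limma test called 3 of the 9 genes at an adjusted p of 0.05: C3 and C4b were higher and C3ar1 was lower. Over all tested genes 40.6% passed, with 16.7% higher and 23.9% lower, so the members' share of calls was no larger than the background. Of all called genes 41.1% were higher, and 52.3% were higher in limma-voom with TMM scaling of the recovered fragments. The median log2 fold change was 0.25 over the members and -0.05 over all tested genes. The same 3 genes were those whose groups did not overlap, which was so for 47.6% of all tested genes (19.7% higher and 27.9% lower).

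**Figure D2:**
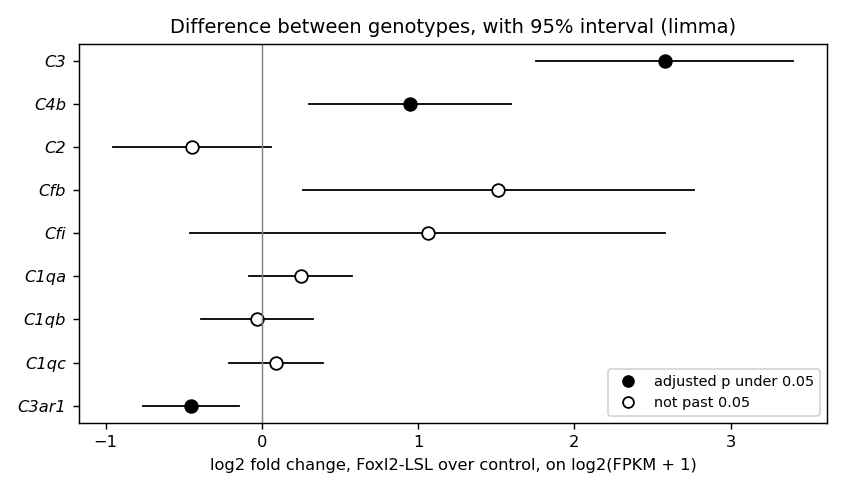
Log2 fold change of each complement gene (x axis, Foxl2-LSL over control, on the log2(FPKM + 1) scale) with its 95% interval from limma; filled points passed an adjusted p of 0.05. C3 stands at 2.58, the C1q chains lie near 0, and the intervals of Cfi and Cfb are wide.

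Cfb encodes factor B, the protease of the alternative pathway convertase. It was at 48.3, 30.2 and 13.7 FPKM in controls 1, 2 and 4, against 130, 35.4, 70.0 and 124 FPKM in Foxl2-LSL libraries 1 to 4. Foxl2-LSL 2 lay below control 1, so the groups overlapped. The means were 30.7 ± 17.3 FPKM and 89.8 ± 45.2 FPKM. The log2 fold change of 1.51 (95% interval 0.26 to 2.76) narrowly missed the threshold (limma adjusted p 0.0564). It passed in 6 of 17 alternative fits, among them the fits without control 1 (adjusted p 0.0358) and without Foxl2-LSL 2 (0.0214), and over all of them the adjusted p (limma) ran from 0.00684 to 0.142.

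Cfi encodes factor I, the soluble protease that inactivates C3b and C4b. It was at 23.8, 16.2 and 3.39 FPKM in controls 1, 2 and 4, against 48.0, 12.4, 17.7 and 34.6 FPKM in Foxl2-LSL libraries 1 to 4. Control 4 was 7.03 times lower than control 1, the widest range within controls among the 9 genes. The log2 fold change of 1.06 had a 95% interval of -0.46 to 2.58 and did not pass (limma adjusted p 0.229). It was 0.32 without control 4, the lowest value among the 7 fits lacking 1 library.

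C4b, the classical pathway component cleaved by C1s, was at 10.6, 11.6 and 7.87 FPKM in controls 1, 2 and 4. Foxl2-LSL libraries 1 to 4 held 25.7, 14.0, 14.8 and 30.2 FPKM, all above the controls, though libraries 2 and 3 only slightly. The means were 10.02 ± 1.92 FPKM and 21.2 ± 8.03 FPKM, for a log2 fold change of 0.95 with a limma adjusted p of 0.0292 (SE 0.28). The call was lost in 5 of the 7 fits lacking 1 library (controls 1, 2 or 4, Foxl2-LSL 1 or 4), where the log2 fold change was 0.76 to 1.05. The adjusted p over all alternatives of that gene was 0.0120 to 0.0734 (limma). C4a, its near-identical paralog, was listed at 0.404 ± 0.0743 FPKM and 0.383 ± 0.0472 FPKM. How reads shared by the paralogs were counted is not given in the sources used here, so the level of C4b is uncertain to that extent.

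C2 encodes the protease that pairs with C4b and is homologous to factor B. It was at 17.9, 15.3 and 11.7 FPKM in controls 1, 2 and 4, against 10.9, 10.6, 7.32 and 14.6 FPKM in Foxl2-LSL libraries 1 to 4. Its log2 fold change of -0.45 (95% interval -0.95 to 0.06) did not pass (limma adjusted p 0.135), and it was -0.60 to -0.29 in the fits lacking 1 library, smallest without Foxl2-LSL 3. The ratio of Cfb to C2, chosen after the values were seen, was 1.94 ± 0.768 in controls and 8.32 ± 3.60 in Foxl2-LSL libraries. The ranges of this ratio did not overlap (1.16 to 2.70 against 3.35 to 11.9; exact permutation p, two-sided, 0.0571). In the annotation C2 overlaps Zbtb12 on the opposite strand and the read-through gene Gm20547, which also covers Cfb. The use of strand is not given in the sources used here, so reads in these overlaps cannot be assigned with certainty.

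The C1q chains were even across libraries. C1qa was at 27.4, 38.7 and 28.6 FPKM in controls 1, 2 and 4, against 40.6, 33.1, 34.0 and 42.1 FPKM in Foxl2-LSL libraries 1 to 4. C1qb was at 26.9, 39.0 and 27.6 FPKM, and then at 33.6, 29.3, 25.1 and 33.1 FPKM. C1qc was at 25.3, 34.0 and 26.2 FPKM, and then at 33.2, 27.1, 27.2 and 33.6 FPKM. Control 2 was the highest control for each chain, and within a group no chain varied by more than 1.45 times.

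None of the C1q chains passed (limma adjusted p 0.197 for C1qa, 0.892 for C1qb and 0.618 for C1qc). Their log2 fold changes were 0.25 (95% interval -0.08 to 0.58), -0.03 (-0.39 to 0.33) and 0.09 (-0.21 to 0.39). The intervals of C1qa, C1qb and C1qc exclude a change of 2-fold or more on this scale. Without control 2, C1qa had a log2 fold change of 0.40 and just passed (limma adjusted p 0.0498). The ratio of C1qa to C1qb, chosen after the values were seen, was 1.02 ± 0.0213 in controls and 1.24 ± 0.0949 in Foxl2-LSL libraries (exact permutation p, two-sided, 0.0571), and its ranges did not overlap.

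C1q was also set against macrophage markers. The 12 marker genes summed to 137 to 194 FPKM in controls and 183 to 229 FPKM in Foxl2-LSL libraries. The log2 ratio of mean C1q to this sum was -2.52 ± 0.26 and -2.62 ± 0.18, a difference of -0.09 that was smaller than the spread between libraries (exact permutation p, two-sided, 0.743). Lyz2, at 104 ± 26.1 and 107 ± 14.1 FPKM, was the largest part of the sum, so this ratio mostly sets C1q against Lyz2. Against the median marker on the log2(FPKM + 1) scale, the difference was -0.21 (exact permutation p, two-sided, 0.343). The macrophage genes did not move as a block: of 11 tested, 3 were higher, 1 was lower and 7 did not pass (limma). The shares over all tested genes were 16.7% higher and 23.9% lower. The lysozyme gene Lyz2 and the lipopolysaccharide receptor gene Cd14 had log2 fold changes of 0.06 and 0.09, and Cd68 had 0.82, none of which passed. The scavenger receptor genes Mrc1 (2.63 ± 0.590 to 8.33 ± 0.864 FPKM) and Cd163 (0.321 ± 0.173 to 2.08 ± 0.555 FPKM) rose, with log2 fold changes of 1.37 and 1.21. In whole tissue, fewer cells of a type and less RNA per cell cannot be told apart.

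C3ar1, the receptor for C3a, was the lowest of the 9 genes. It was at 1.75, 2.38 and 1.65 FPKM in controls 1, 2 and 4, against 1.10, 0.979, 0.995 and 1.46 FPKM in Foxl2-LSL libraries 1 to 4. All 4 lay below the controls. The means were 1.93 ± 0.396 FPKM and 1.13 ± 0.225 FPKM, giving a log2 fold change of -0.45 with a limma adjusted p of 0.0283 (SE 0.13). At this level the added pseudocount shrinks the change, which was -0.72 with a pseudocount of 0.1. The call was lost in 4 of the 7 fits lacking 1 library (control 2, Foxl2-LSL 1, 2 or 3), where the log2 fold change was -0.45 to -0.34. Over the alternatives of this gene, the minimum mean of 5 FPKM set aside, the adjusted p was 0.00770 to 0.136 (limma). At least 201 fragments lay on it in each library. Csf1r, a macrophage receptor gene, rose from 8.47 ± 1.23 FPKM to 13.8 ± 1.95 FPKM. The ratio of C3ar1 to Csf1r, chosen after the values were seen, fell from 0.226 ± 0.0163 to 0.0824 ± 0.0129 (exact permutation p, two-sided, 0.0571). Csf1r was among the 3 macrophage markers called higher, so the size of this fall depends on the marker chosen. Lyve1, the 1 marker called lower, had a ratio of means of 0.631, against 0.588 for C3ar1, and 7 markers did not pass.

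Taking the 9 genes as one set of levels per length, C3 made up 37.4% to 45.5% of their summed FPKM in controls and 69.8% to 74.9% in Foxl2-LSL libraries. In controls the order of mean levels was C3, then C1qa, C1qb, Cfb and C1qc, then C2, Cfi and C4b, with C3ar1 lowest. C1qa, C1qb, Cfb and C1qc, at 28.5 to 31.6 FPKM, differed by less than their spread. In Foxl2-LSL libraries the order was C3, Cfb, then C1qa, C1qc, C1qb and Cfi (28.2 to 37.4 FPKM), then C4b, C2 and C3ar1.

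The rest of the pathway was read from a list of 56 complement genes, the 9 members included. Of these, 31 were tested and 25 fell below the filter (mean FPKM of at least 1). Among the 31, 11 were higher, 2 were lower and 18 did not pass (limma), with a median log2 fold change of 0.26. With the members set aside, 9 of 22 were higher, 1 was lower and 12 did not pass. Over all tested genes 16.7% were higher and 23.9% lower. Without control 2, 8 genes of the 31 passed in place of 13, and of all 13334 tested genes 3853 passed in place of 5409.

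Membrane regulators that restrain C3 activation were higher in part. Cd55, decay-accelerating factor of the cell surface, rose from 20.8 ± 4.95 FPKM to 42.4 ± 5.79 FPKM (log2 fold change 1.01). Cr1l, the rodent membrane regulator Crry, rose from 21.03 ± 1.24 to 28.1 ± 1.43 FPKM (log2 fold change 0.40). Cd46, membrane cofactor protein, was low, at 0.953 ± 0.256 and 1.64 ± 0.217 FPKM, and its call (log2 fold change 0.44, limma adjusted p 0.0278) was lost in 5 of the 7 fits without a library: control 1 or 2, or Foxl2-LSL 2, 3 or 4 (adjusted p up to 0.0737). In all, 3 of 5 tested membrane regulators were higher and 2 did not pass, against 16.7% higher over all tested genes.

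Genes of the proteases that C1q activates also rose. C1s1, the more abundant C1s gene, was at 85.8 ± 4.68 FPKM and 111 ± 7.80 FPKM (log2 fold change 0.37, limma adjusted p 0.00939). Its paralog C1s2 was at 1.30 ± 0.324 and 2.52 ± 0.460 FPKM, a ratio of means of 1.95 (log2 fold change 0.62, or 0.92 with a pseudocount of 0.1). C1ra was at 17.7 ± 1.47 and 21.5 ± 1.74 FPKM, and its call (log2 fold change 0.27, limma adjusted p 0.0452) was lost in 5 of the 7 fits without a library: control 1 or 2, or Foxl2-LSL 2, 3 or 4 (adjusted p up to 0.127). These genes have near copies, and how shared reads were counted is not given in the sources used here.

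The pathways' other arms were sparse in this tissue. Of 9 lectin pathway genes only Colec12, a membrane collectin, was tested, at 28.3 ± 11.9 FPKM and 16.3 ± 1.13 FPKM (log2 fold change -0.68, limma adjusted p 0.0639). Its value was -0.39 without control 4 and -1.01 without control 1, where it passed (limma adjusted p 0.00355), as it did with array weights (0.00662). Of 7 terminal genes 2 were tested, and C8g, at 4.22 ± 0.286 and 3.49 ± 0.328 FPKM, did not pass. C9, which forms the membrane pore, rose from 0.616 ± 0.204 to 1.56 ± 0.491 FPKM (log2 fold change 0.65, limma adjusted p 0.0216). Its call was lost without control 2 (log2 fold change 0.56, limma adjusted p 0.0786) and without Foxl2-LSL 3 (0.63, limma adjusted p 0.0589).

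Among receptors, Cd93, an endothelial and myeloid glycoprotein once described as a C1q receptor, fell from 23.7 ± 5.10 FPKM to 6.26 ± 0.916 FPKM (log2 fold change -1.75, limma adjusted p 0.000317). Most endothelial markers fell beside it: 5 of 8 were lower and 2 higher, against 23.9% lower and 16.7% higher over all tested genes. The endothelial markers summed to 141 to 185 FPKM in controls and 111 to 125 FPKM in Foxl2-LSL libraries. Their part in the fall of Cd93 was not tested. Itgam, the alpha chain of complement receptor 3, had 1.60, 1.99 and 1.81 FPKM in controls, against 12.2, 2.93, 4.21 and 17.97 FPKM in Foxl2-LSL libraries 1 to 4. Its rise (log2 fold change 1.60, limma adjusted p 0.0416) rested on libraries 1 and 4. The call was lost without either of them or without any single control, with an adjusted p of up to 0.0934. Itgb2, which encodes the beta chain of the same receptor and is named here with its values already known, did not pass (3.15 ± 0.863 and 3.11 ± 0.788 FPKM).

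Cfd, which encodes factor D (adipsin) and is made largely by fat cells, had no stable level. It was at 0.120, 5.60 and 53.1 FPKM in controls 1, 2 and 4, against 1.37, 67.3, 139 and 10.03 FPKM in Foxl2-LSL libraries 1 to 4. Its log2 fold change of 1.60 did not pass (limma adjusted p 0.474), and it ran from 0.24 without control 1 to 3.04 without control 4. The summed FPKM of 6 adipocyte markers ran in the same order, at 1.199, 3.19 and 22.8 in controls and 2.84, 38.3, 69.0 and 7.69 in Foxl2-LSL libraries. Their part in the level of Cfd was not tested.

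**Figure D3:**
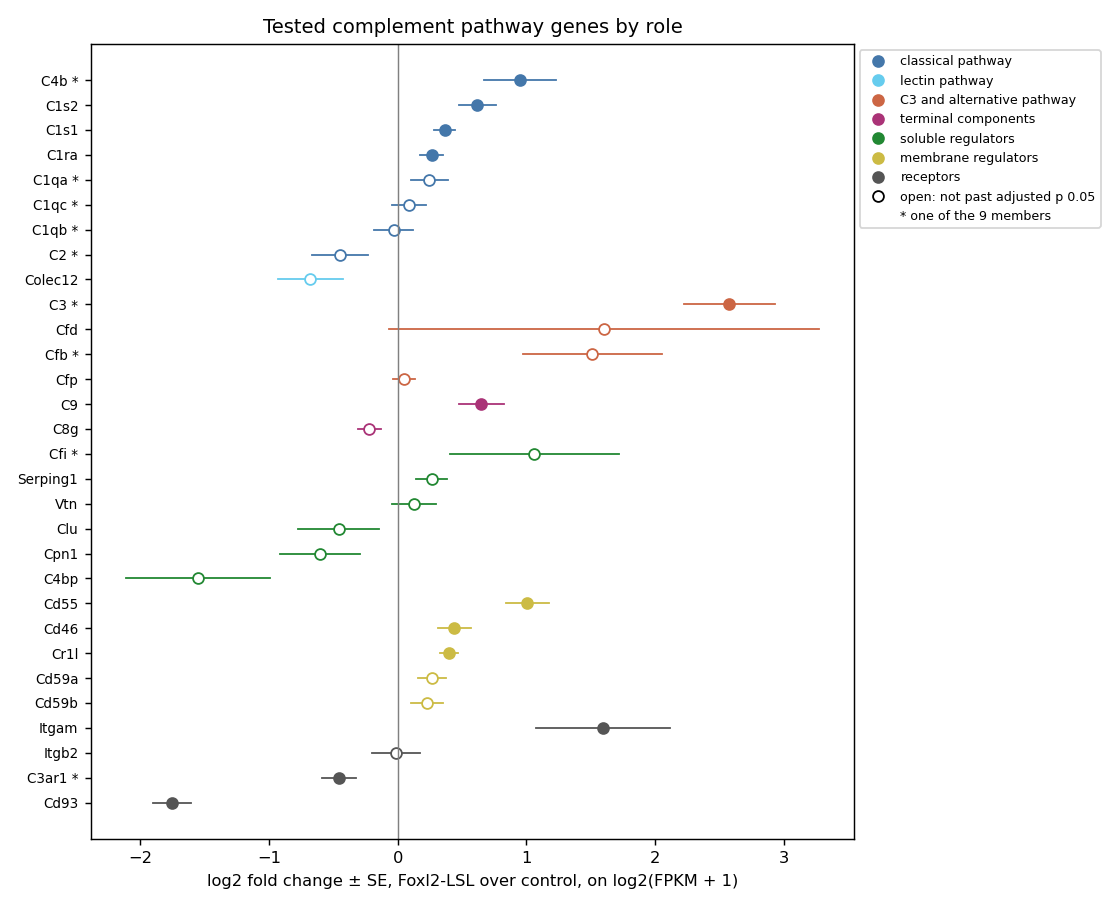
Log2 fold change ± SE (x axis, Foxl2-LSL over control, limma on log2(FPKM + 1)) of tested complement pathway genes, 1 of the 31 left out, coloured by role; filled points passed an adjusted p of 0.05 and asterisks mark the 9 members. C3 lies farthest to the right, Cd93 farthest to the left, and Cfd has the widest bar.

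C3, Cfb, Cfi and C4b had similar orders among the Foxl2-LSL libraries. Among controls, C3, Cfb, Cfi and C2 were each highest in control 1 and lowest in control 4. Among Foxl2-LSL libraries, C3, Cfb, Cfi and C4b were each highest in library 1 or 4 and lowest in library 2. The spread within Foxl2-LSL libraries was 2.48 times for C3, 3.66 times for Cfb, 3.86 times for Cfi and 2.16 times for C4b, against 1.24 to 1.34 times for the C1q chains.

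The summed epithelial markers followed a like order. The summed FPKM of 10 epithelial genes was 1541, 1030 and 792 in controls 1, 2 and 4 and 1837, 1195, 1609 and 1720 in Foxl2-LSL libraries 1 to 4. Of these genes, 2 were higher and 8 did not pass, against 16.7% higher and 23.9% lower over all tested genes. The keratin gene Krt18 rose from 123 ± 30.7 FPKM to 212 ± 24.2 FPKM, and Elf3, an epithelial ETS factor, from 55.2 ± 37.2 to 204 ± 105 FPKM. Elf3 lost its call without control 2, control 4, Foxl2-LSL 1 or Foxl2-LSL 4 (limma adjusted p up to 0.0708, log2 fold change 1.40 at the lowest). Krt19 and Krt8, with log2 fold changes of 0.53 and 0.35, did not pass. These were 0.26 and 0.05 without control 4 and 0.78 and 0.63 without control 1, where Krt19 passed (limma adjusted p 0.0196), as it did with array weights (0.0144).

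Relative to the summed epithelial markers, a comparison chosen after the values were seen, C3 was still higher. The log2 ratio was -3.33 ± 0.13 in controls and -1.28 ± 0.35 in Foxl2-LSL libraries, a difference of 2.05 with no overlap (exact permutation p, two-sided, 0.0571). For C4b the same difference was 0.48 (p 0.229), for Cfb 1.01 (p 0.114) and for Cfi 0.63 (p 0.457), all by the exact permutation test and with overlapping groups. For C2 it was -1.03 with no overlap (exact permutation p 0.0571).

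The summed estrogen response genes were lowest in the same libraries as C3. The 12 listed genes summed to 619, 725 and 311 FPKM in controls 1, 2 and 4 and to 2255, 848, 1246 and 2124 FPKM in Foxl2-LSL libraries 1 to 4, lowest in control 4 and, within Foxl2-LSL, in library 2. Ltf, Sprr2f and Lcn2 had the highest mean levels of the list and weigh most in this sum. Of the 12, 6 were higher, 1 was lower and 5 did not pass (limma), against 16.7% higher and 23.9% lower over all tested genes. Padi1, Padi2 and Padi4, of the same gene family, were among the 6. The lower gene was Ramp3, which fell from 102 ± 53.7 to 28.1 ± 1.41 FPKM (log2 fold change -1.70, limma adjusted p 0.00300). Ltf, the lactoferrin gene, was at 159, 217 and 31.0 FPKM in controls, against 1072, 450, 671 and 984 FPKM in Foxl2-LSL libraries. Lcn2, the gene of an iron-scavenging lipocalin, rose from 30.3 ± 21.2 FPKM to 201 ± 148 FPKM, a call lost without control 2 or 4 or without Foxl2-LSL 1, 3 or 4 (limma adjusted p up to 0.0867). Padi1 and Padi2, which encode enzymes that convert protein arginine to citrulline, had log2 fold changes of 3.30 and 3.05, and Sprr2f, of the small proline-rich family, had 0.07 and did not pass. The part of these differences in that of C3 was not tested, and a stage of the cycle that differed from its label cannot be told apart from genotype here.

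**Figure D4:**
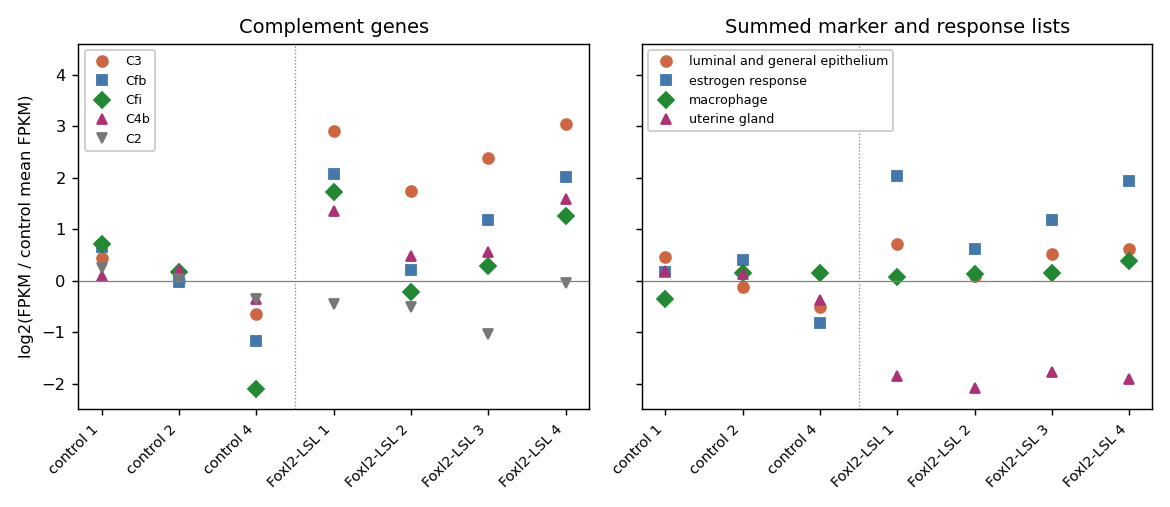
Level in each library relative to the control mean (y axis, log2 of FPKM over the mean control FPKM) for C3, Cfb, Cfi, C4b and C2 (left) and for the summed FPKM of 4 marker or response lists (right); the dotted line separates the groups. Control 4 and Foxl2-LSL 2 are the lowest of their groups for C3, Cfb and Cfi as well as for the epithelial and estrogen response sums.

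Of 11 tested genes of the progesterone response list, 6 were lower and 5 did not pass (limma), against 23.9% lower over all tested genes. Among the 6, Gata2 (log2 fold change -0.49, limma adjusted p 0.0422) kept its call only without control 2 among the 7 fits lacking 1 library (adjusted p up to 0.0960). Acod1 (-2.28, limma adjusted p 0.0211) lost its call without Foxl2-LSL 3 (adjusted p 0.0519), and its value was -1.38 without control 4. The progesterone response list summed to 294 to 539 FPKM in controls and 136 to 164 FPKM in Foxl2-LSL libraries. Calb1, which encodes a calcium-binding protein of the luminal epithelium, had a log2 fold change of -1.97, and Ihh, the Indian hedgehog gene, one of -2.53. In the uterine gland list 3 of 4 tested genes were lower, against 23.9% over all tested genes. The gland list summed to 65.3 to 96.5 FPKM in controls and 20.05 to 24.97 FPKM in Foxl2-LSL libraries. Inflammatory regulators were mixed: of 11 tested, 3 were higher, 2 were lower and 6 did not pass. Over all tested genes 16.7% were higher and 23.9% lower. Nfkbia, the NF-kappaB inhibitor gene, rose from 36.7 ± 3.83 FPKM to 91.0 ± 19.2 FPKM, and Stat3 from 33.4 ± 4.57 to 61.8 ± 3.94 FPKM. Lbp, the lipopolysaccharide-binding protein gene, fell from 163 ± 26.2 to 75.2 ± 5.09 FPKM. Markers of hepatocytes, the main source of plasma complement, were near 0: 6 genes summed to 0.331 to 1.90 FPKM in controls and 0.874 to 4.94 FPKM in Foxl2-LSL libraries, and the 1 gene tested was higher.

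Other cell types had low or overlapping marker levels. Neutrophil markers summed to 3.66 to 5.23 FPKM in controls and 3.18 to 5.54 FPKM in Foxl2-LSL libraries. The T and B cell sum was low but did not overlap, at 1.52 to 2.79 FPKM in controls and 2.94 to 3.71 FPKM in Foxl2-LSL libraries. None of its 8 genes was tested. The mast cell sum stayed at or below 16.1 FPKM and the ovary sum at or below 10.3 FPKM. The NK cell sum was 2.26 to 4.397 FPKM in controls and 5.83 to 7.23 FPKM in Foxl2-LSL libraries, with 1 of 2 genes higher. Stromal markers (5 of 10 lower, 1 higher) and smooth muscle markers (3 of 8 higher) had sums that overlapped between the groups. Over all tested genes 23.9% were lower and 16.7% higher.

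Genes beside the members on the chromosome moved in both directions. Within 50 kb of C2, Cfb and C4b, 9 other protein-coding genes were expressed (mean of at least 1 FPKM). Of these, 2 were higher, 1 was lower and 6 did not pass (limma), against 16.7% higher and 23.9% lower over all tested genes. Neighbours of any member below that level were not tested and are not described. Slc44a4, a choline transporter family gene, rose from 14.8 ± 1.18 FPKM to 45.7 ± 10.7 FPKM (log2 fold change 1.53). Zbtb12 (0.34) and Skiv2l (-0.22) had small differences. Zbtb12 kept its call only without control 1 among the 7 fits lacking 1 library, and Skiv2l only without Foxl2-LSL 3 (limma adjusted p up to 0.0964 and 0.0815). Near C3, Gpr108 rose slightly (log2 fold change 0.35) and Trip10 did not pass. Near C3ar1, Foxj2 had a log2 fold change of 0.27, and Ephb2 near the C1q cluster had one of -0.33. Both lost their calls without control 2 or 4 or Foxl2-LSL 1 or 2, Foxj2 also without Foxl2-LSL 4 and Ephb2 also without Foxl2-LSL 3 (limma adjusted p up to 0.0907 and 0.0666). The 4 expressed neighbours of Cfi did not pass.

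The genes whose levels were most like those of C3 were ranked by Pearson's r of log2(FPKM + 1) over the 7 libraries, given as a description only, since both groups and their difference enter it. The first 5 were Rab27b (0.995), Tmem176a (0.994), Dkkl1 (0.994), Tmc8 (0.994) and Plekhb2 (0.993). All of them rose, with log2 fold changes of 1.04, 0.81, 1.87, 1.20 and 0.88. Those most like C1qa were Clec4a1 (0.967), Adgre5 (0.967), Mbnl1 (0.961), H2-DMb1 (0.960) and Ptpn5 (0.953), none of which passed the test between genotypes. Clec4a1 and Adgre5 encode receptors of myeloid and other immune cells, and H2-DMb1 a chaperone of antigen loading on class II molecules.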

How the data were processed

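Whole-uterus RNA was sequenced in 7 libraries. The authors deposited 1 table of FPKM values, with a column of gene lengths that the deposited table gives in bases. The submitters' processing notes name STAR 2.5.2b, featureCounts 1.5.0-p1, Subread, DESeq2 1.12.4 and mm10, without saying which step made the FPKM. Low values of short genes were whole multiples of 1 fragment (100% of 1326 to 1467 values per library within 0.1 of whole, against 20% by chance), which gave the fragments per library. Genes with a mean of at least 1 FPKM (13334, with 11630 below) were tested with limma 3.58.1 (intensity trend, R 4.3.3) on log2(FPKM + 1), and p-values were Benjamini-Hochberg adjusted over all tested genes with a threshold of 0.05. Fold changes on this scale understate those of low genes. Ratios were tested by two-sided exact permutation over 35 splits (scipy 1.17.1). On simulated data of 13334 genes, 186 of 200 genes changed by 1.5 (log2) were called in the right direction, with 9 false calls. The simulated noise was independent between genes, and the change was larger than that of most members. The simulation therefore does not give the rate of missed or false calls for the members. Alternatives were another pseudocount, other filters, scalings, weights, limma-voom with TMM factors on the recovered fragments, a replicate block and leaving out each library.

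The members and lists were chosen with earlier results of these data known. Beside the members, genes were named as follows: in each role, the most abundant other gene and up to 4 called genes with the largest change; in each marker or response list, up to 3 abundant and 2 called genes; expressed neighbours within 50 kb; and the 5 genes most like C3 and C1qa. Not every gene that met this rule is printed, and Csf1r, C4a, Itgb2 and Hoxa10 were given for the purpose stated beside them. Cdh1, Cldn3, Cldn4, Lyve1, Padi4 and Ramp3 were given outside this rule, with their values already known. Protein sequences were not analysed here. One gene of the pathway list enters the counts but is not reported here.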

Additional observations from a re-analysis of the deposited data

Results flagged for a closer look

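Among 61 named genes, 3 had a Foxl2-LSL library far from the other 3 by Dixon's criterion at the 95% level, and it was Foxl2-LSL 2 each time; chance alone flags about 1 in 20 groups. Cd93 was at 7.631 FPKM there, with the nearest other library at 5.86 FPKM. Krt8 was at 214.187 FPKM, with the nearest at 294.894 FPKM. Nfkbia was at 62.477 FPKM, with the nearest at 96.315 FPKM. None of the 9 complement genes had such a library. Controls, with 3 libraries, were not examined in this way.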

How the results depend on the processing

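C3 was called in all 17 alternative fits, with a log2 fold change of 2.29 to 2.84 when each library was left out. Per summed epithelial FPKM the differences were 2.05 for C3 and 0.48 for C4b, where the exact test cannot pass 0.05. C4b lost its call with no filter (0.95, adjusted p 0.0521) and with the replicate block (1.09, 0.0692), and ranged from 0.76 to 1.11 without each library. Cfb gained a call with a common sum (1.49), quantile normalization (1.56), array weights (1.67) and limma-voom (1.62), and ranged from 1.04 to 1.92 without each library. C3ar1 was kept in the fit with a minimum mean of 5 FPKM although it lies below it, so the value there (-0.45, not called) does not bear on its stability. It lost its call with the replicate block and without the block on the same libraries 1, 2 and 4 (-0.42 in both). It ranged from -0.52 to -0.34 without each library. C1qa ranged from 0.16 to 0.40 without each library. C1qb, near 0, turned sign with median centring (0.021), quantile normalization (0.014), limma-voom (0.037) and libraries 1, 2 and 4 with or without the block (0.054). It also did so without control 2 (0.14), and ranged from -0.12 to 0.14 without each library. C1qc turned sign with array weights (-0.020). The cause was not tested. The replicate block left 1 member, 7 pathway genes and 3243 genes in all called, against 3975 without the block on the same libraries. Leaving out each library gave 1 to 3 members, 8 to 14 pathway genes and 3853 to 5328 genes. The labels do not say that replicate numbers pair libraries, so the numbers were not taken to pair them. Same-numbered libraries had correlations of deviations of 0.228, -0.0306 and -0.112 for numbers 1, 2 and 4. With so few libraries these values cannot decide whether the libraries were paired. Uncalled genes near 0 also turned sign: Foxl2 (-0.15 with array weights, and -0.10 to 0.28 without each library), Lyz2 (-0.018 with array weights, and -0.16 to 0.19), Cd14 (-0.085 to 0.36), Sprr2f (-0.30 to 0.63) and Mbnl1 (-0.0081 with array weights). Of 52 genes followed through the alternatives beside the members, 21 changed their call in at least 1 alternative, and 23 were called in all. C3ar1 rested on as few as 201 fragments in a library.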
